A study of Mus musculus with 12 samples.

Results

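The genes described here carry the adrenergic signal that drives lipid release in fat. They are 8 of the 55281 annotated genes of the count table, chosen by symbol: the β receptors Adrb1 and Adrb3, the α receptors Adra1a and Adra2a, the stimulatory G protein α subunit Gnas, the protein kinase A subunits Prkar2b and Prkaca, and the phosphodiesterase Pde3b. All 8 passed the filter on low counts. Their level was read from RNA sequencing of whole gonadal fat (GWAT) of male mice, 22 to 24 weeks old, and the question is how their level differs by genotype and by diet. HoipA-KO mice (Hoip fl/fl AdipoQ.Cre+) lack Hoip, also named Rnf31, in mature adipocytes, where the adiponectin promoter drives the Cre recombinase, and WT mice (Hoip fl/fl AdipoQ.Cre-) carry the same floxed alleles without Cre. From 6 weeks of age the mice ate a control diet (CD, 14% fat by the labels) or a high-fat diet (HFD, 60% fat) for 16 weeks. Each of the 4 groups has 3 libraries, and each library holds tissue pooled from 3 mice.

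Noradrenaline from sympathetic nerves reaches adipocytes through β receptors, which couple to the stimulatory G protein and so raise cyclic AMP. Cyclic AMP releases the catalytic subunits of protein kinase A from its regulatory subunits, and the free kinase phosphorylates perilipin and hormone-sensitive lipase. Receptors of the α2 class couple to inhibitory G proteins, those of the α1 class signal mainly through calcium, and PDE3B degrades cyclic AMP downstream of insulin. Adrb3 is the β receptor that marks mature rodent adipocytes.

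The libraries held 30513446 to 60540225 counts, so that 3 counts, taken as the floor, correspond to 0.0533 to 0.0996 CPM (counts scaled to library size, with TMM normalization over all 12 libraries). WT CD replicate 3 stood apart, with a correlation across genes of 0.793 and 0.795 to the other WT CD libraries, as compared to 0.904 between those and 0.971 to 0.993 within the other groups. Tests used the other 11 libraries, the set behind the comparison tables of the study, and values over all 12 are given where they change a call described below. Rnf31 itself was at 17.7 to 22.5 CPM in the HoipA-KO libraries and at 18.2 to 21.2 CPM in the 5 WT libraries of the tests, so its level in whole tissue did not check the genotype. The adipocyte list (10 genes) summed to 20300 to 50200 CPM in these 5 WT libraries and to 5140 to 8600 CPM in the 6 HoipA-KO libraries, and all 10 genes fell in HoipA-KO mice on both diets. The 9 macrophage genes summed to 473 to 630 CPM in WT CD, 1810 to 5350 in WT HFD and 6590 to 12100 in the HoipA-KO libraries. In bulk tissue, fewer adipocytes and less RNA of a gene per adipocyte cannot be told apart, and this holds for every level below.

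On CD, 4 of the 8 genes were lower in HoipA-KO mice and none was higher, at an adjusted p under 0.05 in edgeR's quasi-likelihood test, while 18.8% of all 18427 genes tested were called lower and 18.9% higher. These were Adrb3, Adrb1, Pde3b and Prkar2b. The same 4 genes were lower on HFD, where 7.62% of all genes were lower and 4.2% higher. Since the 8 genes were chosen with earlier results of these data known, their counts beside these shares are a description. The median log2 fold change of the 8 genes was -1.198 on CD and -1.28 on HFD, beside medians of all genes of -0.055 and 0.058. Over all 12 libraries the median of all genes on CD was -0.21 and 34.7% of them were called, so single fold changes there are read against that shift. Counted by the libraries alone, 6 of 8 genes on CD and 7 of 8 on HFD were lower in every HoipA-KO than in every WT library of the tests, as were 27.4% and 23.7% of all genes, and none was higher in this way, as were 27% and 20.6%. With WT CD replicate 3, the count on CD was 4 of 8 lower and none higher, beside 19.1% and 19.9% of all genes.

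**Figure D1:**
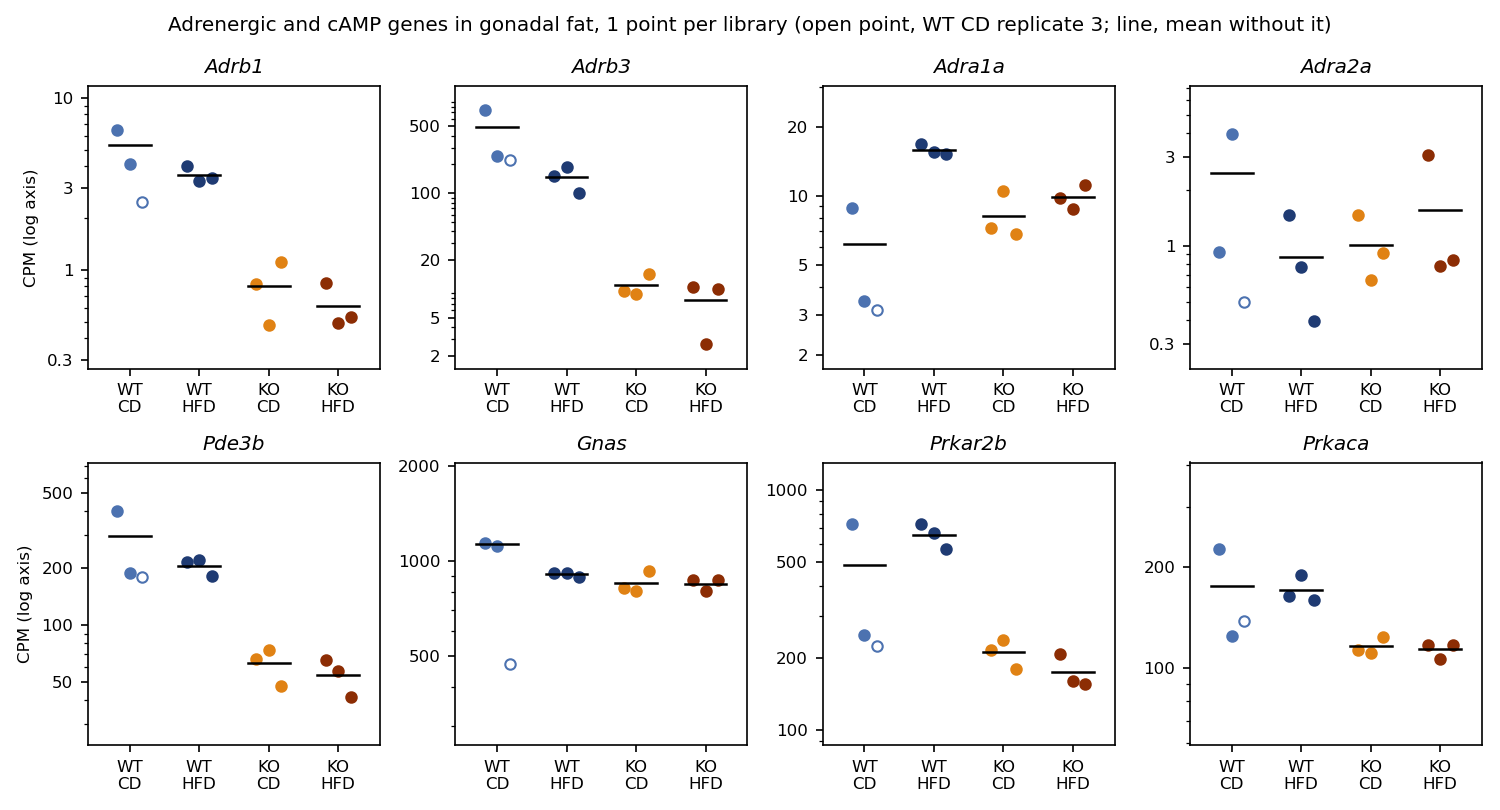
CPM of the 8 genes on logarithmic axes, with 1 point per library, groups on the horizontal axis (KO stands for HoipA-KO), an open point for WT CD replicate 3 and a line at the mean of the others. Adrb3, Adrb1 and Pde3b are lower in all 6 HoipA-KO libraries than in any WT library, while the 11 filled points of Gnas lie between 803 and 1139 CPM.

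Adrb3 (chromosome 8, 27225776 to 27250616, minus strand, GRCm38) showed the largest genotype difference of the 8 genes. One of its exons overlaps a gene on the opposite strand, and the strand setting of the counting is not given in the sources used here. It was at 733, 243 and 225 CPM in WT CD replicates 1, 2 and 3, and at 152, 188 and 101 CPM in WT HFD. HoipA-KO libraries held 9.48, 8.94 and 14.4 CPM on CD and 10.6, 2.66 and 10.0 CPM on HFD. The lowest WT library on CD, replicate 3 included, was thus 15.7-fold above the highest HoipA-KO library, and on HFD the corresponding ratio was 9.54. The fitted log2 fold change was -5.44 ± 0.65 (SE) on CD, a 43.4-fold difference with an adjusted p of 0.000515 in edgeR's test. On HFD it was -4.23 ± 0.59, an 18.8-fold difference with an adjusted p of 0.00871 in edgeR's test. WT CD replicate 1 held 3 times the Adrb3 of the other WT CD libraries, and without it the value on CD was -4.44, still with an adjusted p of 0.00119 in edgeR's test.

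Adrb1 (chromosome 19, 56722199 to 56733113, plus strand) encodes the β receptor best known from the heart and was far less abundant. Its level was 6.51, 4.125 and 2.47 CPM in WT CD and 4.02, 3.27 and 3.41 CPM in WT HFD. It was 0.822, 0.480 and 1.11 CPM in HoipA-KO CD and 0.836, 0.4885 and 0.533 CPM in HoipA-KO HFD, above the floor in every library and without overlap between the genotypes on either diet. The log2 fold change was -2.69 ± 0.39 on CD (6.45-fold, adjusted p = 0.000983 in edgeR's test) and -2.51 ± 0.37 on HFD (5.69-fold, adjusted p = 0.00871). Leaving out any 1 of the 11 libraries kept Adrb1, Adrb3 and Pde3b past the threshold on both diets, with adjusted p-values of at most 0.0461 in edgeR's test.

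**Figure D2:**
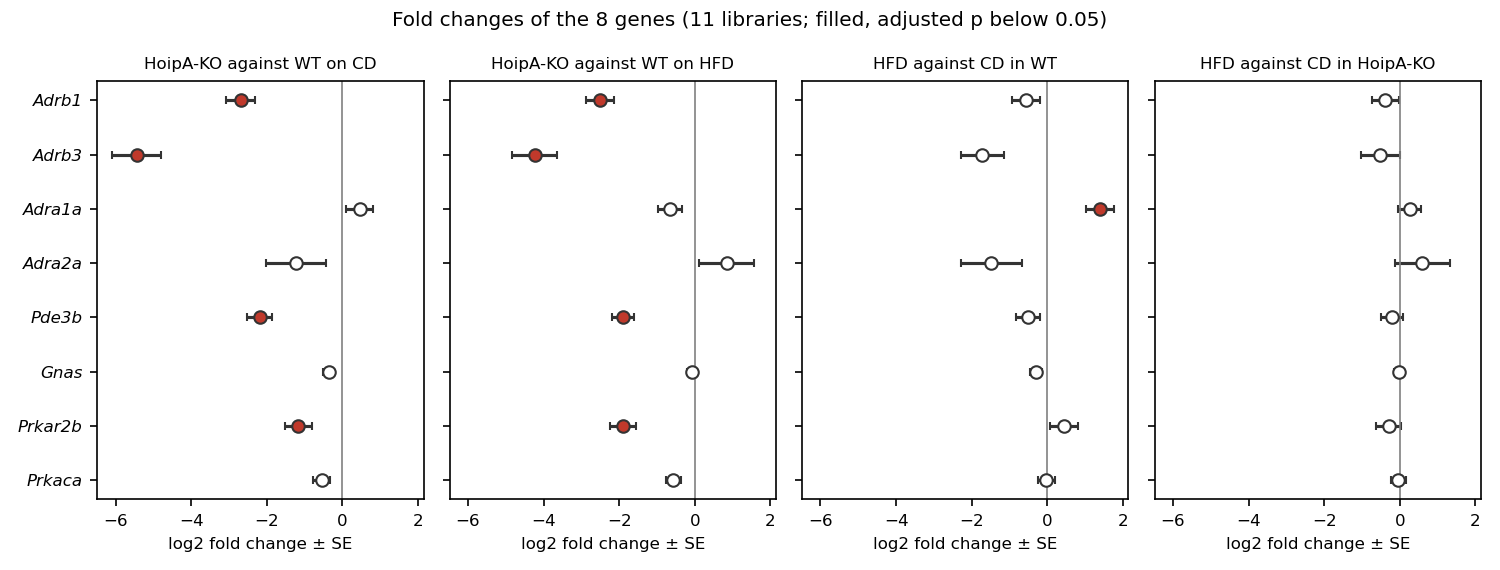
Log2 fold changes of the 8 genes with their SE from the edgeR model of 11 libraries, in 4 panels for the 4 comparisons, where filled points have an adjusted p under 0.05. Filled points are those of Adrb1, Adrb3, Pde3b and Prkar2b for genotype on both diets and that of Adra1a for HFD in WT mice.

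Among the α receptors, Adra1a (chromosome 14, 66635251 to 66771168, plus strand), a calcium-coupled receptor, was the one gene of the 8 that passed the test for diet. It was at 8.82, 3.47 and 3.155 CPM in WT CD and at 16.9, 15.6 and 15.3 CPM in WT HFD, so every WT HFD library exceeded every WT CD library. The log2 fold change for HFD in WT mice was 1.39 ± 0.37, a 2.62-fold rise with an adjusted p of 0.0351 in edgeR's test, where 9.35% of all genes were called higher and 5.47% lower. Over all 12 libraries it was 1.63, with an adjusted p of 0.0228 in edgeR's test, where 15% of all genes were called. The call was lost when any of 5 libraries was left out, namely WT CD replicate 2 (0.86, adjusted p = 0.108 in edgeR's test), each of the 3 WT HFD libraries (1.34 to 1.41, adjusted p = 0.0718 to 0.0859) or HoipA-KO CD replicate 1 (1.39, adjusted p = 0.0554). Without WT CD replicate 1, on the other hand, it was 2.22.

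In HoipA-KO mice Adra1a lay between the WT groups on HFD and CD, at 7.21, 10.5 and 6.82 CPM on CD and 9.79, 8.815 and 11.2 CPM on HFD. The HoipA-KO HFD libraries were all below the WT HFD libraries, but neither genotype comparison passed the test, with log2 fold changes of 0.46 ± 0.36 on CD (adjusted p = 0.328 in edgeR's test) and -0.67 ± 0.31 on HFD (adjusted p = 0.177). The order of the group means was WT HFD with 15.9 ± 0.83 CPM (SD, n = 3), HoipA-KO HFD with 9.92 ± 1.18 (n = 3), HoipA-KO CD with 8.17 ± 2.02 (n = 3) and WT CD with 6.15 ± 3.78 (n = 2), and neighbours below the first overlapped. On CD the value was 1.27 without WT CD replicate 1 (adjusted p = 0.00913 in edgeR's test) and -0.06 without replicate 2. The difference on HFD passed without either of these libraries (-0.68 and -0.66, adjusted p = 0.0384 and 0.0408 in edgeR's test). The interaction of genotype and diet was -1.13 ± 0.47 for Adra1a, with an adjusted p of 0.195 in edgeR's test. It was -1.95 without WT CD replicate 1 (adjusted p = 0.00985 in edgeR's test) and -0.61 without replicate 2 (adjusted p = 0.403).

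Adra2a (chromosome 19, 54044151 to 54048982, plus strand), the α2 receptor that inhibits cyclic AMP formation, was scarce, and its libraries overlapped between genotypes and between diets. It was at 0.926, 3.97 and 0.501 CPM in WT CD and 1.46, 0.769 and 0.398 CPM in WT HFD. It was at 1.46, 0.658 and 0.921 CPM in HoipA-KO CD and 3.05, 0.777 and 0.836 CPM in HoipA-KO HFD. No comparison passed the test, and the log2 fold changes between genotypes were -1.23 ± 0.79 on CD and 0.84 ± 0.73 on HFD. The libraries with the highest levels, WT CD replicate 2 and HoipA-KO HFD replicate 1, were also those with the highest summed level of 6 epididymal epithelium genes, 15000 and 1310 CPM as compared to 0.133 to 156 CPM in the other 10. The latter library also had the highest summed level of 4 smooth muscle genes, 3540 CPM as compared to 155 to 479 CPM elsewhere. Their part in the level of Adra2a was not tested. None of the other α receptors, Adra1b, Adra1d, Adra2b and Adra2c, passed in any genotype or diet comparison.

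Gnas (chromosome 2, 174284320 to 174346744, plus strand), whose main product is the stimulatory α subunit, was the most even of the 8 genes over the 11 libraries of the tests. The count includes every transcript of this complex locus, some of whose exons overlap those of Nespas and another gene on the opposite strand. It was at 1139, 1120 and 472 CPM in WT CD and 918, 915 and 892 CPM in WT HFD. It was at 824, 803 and 930 CPM in HoipA-KO CD and 869, 805 and 871 CPM in HoipA-KO HFD. WT CD replicate 3 was thus the lowest of the 12 libraries. The log2 fold change between genotypes was -0.36 ± 0.15 on CD (adjusted p = 0.0839 in edgeR's test, -0.09 over all 12 libraries) and -0.08 ± 0.14 on HFD (adjusted p = 0.703). The difference on CD passed without WT HFD replicate 3, HoipA-KO CD replicate 3 or HoipA-KO HFD replicate 1 (-0.46 to -0.52, adjusted p = 0.0423 to 0.0474 in edgeR's test).

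Prkar2b (chromosome 12, 31958476 to 32061296, minus strand) encodes the regulatory subunit RIIβ, the main protein kinase A regulatory subunit of adipocytes. It was at 727, 249 and 225 CPM in WT CD and 726, 665 and 571 CPM in WT HFD. It was at 216, 238 and 180 CPM in HoipA-KO CD and 208, 160 and 155 CPM in HoipA-KO HFD. On HFD the genotypes did not overlap, with a log2 fold change of -1.89 ± 0.34 (3.71-fold, adjusted p = 0.0141 in edgeR's test), although the adjusted p rose to 0.0516 to 0.0627 without WT HFD replicate 1 or 2 or HoipA-KO HFD replicate 2 (values -1.81 to -1.89). On CD the fold change was -1.16 ± 0.37 (adjusted p = 0.0321 in edgeR's test) and rested on WT CD replicate 1. Without this library it was -0.20 (adjusted p = 0.537 in edgeR's test), and without replicate 2 it was -1.74. It missed the threshold over all 12 libraries as well (-0.92, adjusted p = 0.0914 in edgeR's test), and so it did without any of the 3 HoipA-KO CD libraries (adjusted p = 0.0555 to 0.0789). For HFD in WT mice the value was 0.44 ± 0.38 (adjusted p = 0.463 in edgeR's test), and without WT CD replicate 1 it was 1.42 (adjusted p = 0.00611). The interaction also passed without that library (-1.70, adjusted p = 0.0104 in edgeR's test).

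The regulatory subunits of protein kinase A differed in their shares between the genotypes. With each gene scaled by its exon length (CPM per kb), Prkar2b made up 57.9% and 73.9% of the 4 regulatory subunits in WT CD replicates 2 and 1, and 66.4% to 74.4% in WT HFD. It made up 40.2% to 41.9% in HoipA-KO CD and 33.0% to 42.6% in HoipA-KO HFD. WT CD replicate 3 was at 43.2%, close to the HoipA-KO libraries. Prkar1a, the widely expressed RIα subunit, accounted for 22.8% and 34.3% in WT CD replicates 1 and 2, 21.7% to 28.8% in WT HFD and 48.0% to 57.8% in the 6 HoipA-KO libraries. None of Prkar1a, Prkar1b, Prkar2a and the catalytic subunit gene Prkacb passed the test over 11 libraries in any comparison, while over all 12 libraries Prkacb was higher in HoipA-KO mice on CD (0.85, adjusted p = 0.029 in edgeR's test, as compared to 0.69 and 0.0513 over 11). The shares are a description without a test, and the part of the macrophage genes, which were higher in the same libraries, was not tested.

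Prkaca (chromosome 8, 83972993 to 83996443, plus strand), the main catalytic subunit, was at 226, 125 and 138 CPM in WT CD and 163, 189 and 160 CPM in WT HFD. It was at 114, 111 and 124 CPM in HoipA-KO CD and 118, 107 and 118 CPM in HoipA-KO HFD. Every HoipA-KO library was below every WT library of its diet, by a factor of as little as 1.01 on CD. The log2 fold changes were -0.55 ± 0.22 on CD and -0.57 ± 0.20 on HFD, with adjusted p-values of 0.0685 and 0.085 in edgeR's test. The value on CD was -0.91 without WT CD replicate 2 (adjusted p = 0.00309 in edgeR's test) and -0.07 without replicate 1 (adjusted p = 0.748). It also passed without WT HFD replicate 3, HoipA-KO CD replicate 3, or HoipA-KO HFD replicate 1 or 3 (-0.64 to -0.68, adjusted p = 0.0365 to 0.046 in edgeR's test). On HFD it passed without WT CD replicate 1 or 2 (-0.58 and -0.56, adjusted p = 0.0116 and 0.0114 in edgeR's test). Its share of the catalytic subunits per kb was 84.7% to 92.6% in the 5 WT libraries of the tests and 74.5% to 83.4% in the HoipA-KO libraries, with Prkacb as the rest.

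Sequence upstream of the transcription start came from RefSeq, whose table matched 5 of the 8 genes, Adrb1, Adra2a, Gnas, Prkar2b and Prkaca, but not Adrb3, Adra1a and Pde3b. The 250 bases before the start are shown for Adrb1 and Prkar2b, which were lower on both diets, and for Prkaca, which missed the threshold (GRCm38.p6, read 5′ to 3′ on the strand of the gene, the first listed start). Capitals mark TGACG (the core of the cyclic AMP response element), CCAAT and GGGCGG (the GC box of SP1) on either strand, and no 2 matches overlapped. The windows are chr19:56721867-56722116 on the plus strand, chr12:32061278-32061527 on the minus strand and chr8:83972728-83972977 on the plus strand, in this order:
Adrb1: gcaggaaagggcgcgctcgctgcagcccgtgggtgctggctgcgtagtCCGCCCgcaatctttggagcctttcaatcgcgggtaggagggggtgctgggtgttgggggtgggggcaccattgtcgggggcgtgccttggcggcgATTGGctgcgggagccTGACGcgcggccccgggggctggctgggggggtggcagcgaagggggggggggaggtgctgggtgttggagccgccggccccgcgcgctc
Prkar2b: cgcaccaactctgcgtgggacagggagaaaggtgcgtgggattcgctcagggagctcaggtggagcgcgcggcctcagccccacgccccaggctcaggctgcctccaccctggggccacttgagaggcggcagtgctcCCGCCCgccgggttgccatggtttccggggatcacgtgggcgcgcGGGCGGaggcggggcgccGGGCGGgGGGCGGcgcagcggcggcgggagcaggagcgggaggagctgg
Prkaca: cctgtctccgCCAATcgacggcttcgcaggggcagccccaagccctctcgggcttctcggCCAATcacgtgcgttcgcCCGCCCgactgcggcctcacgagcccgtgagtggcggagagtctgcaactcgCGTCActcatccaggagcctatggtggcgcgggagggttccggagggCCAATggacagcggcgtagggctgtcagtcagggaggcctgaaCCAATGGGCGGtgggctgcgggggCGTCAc
Positions are counted from the RefSeq start. For Adrb1 the window ends at 56722116, upstream of the gene start of 56722199 given above. The core was found 1 time before Adrb1, 90 bases upstream, and 2 times before Prkaca, 120 and 6 bases upstream, but not before Prkar2b. CCAAT was found 1 time before Adrb1 and 4 times before Prkaca, and the GC box 1 time before Adrb1, 4 times before Prkar2b and 2 times before Prkaca. Of 32851 RefSeq promoter windows of this length, 17.8% held the core, 33.8% held CCAAT and 32.7% held the GC box. The full element TGACGTCA was in none of the 3 windows and in 1.55% of all. A match describes the letters only.

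Pde3b (chromosome 7, 114415281 to 114539251, plus strand), which breaks down cyclic AMP and is activated by insulin signaling, was at 404, 188 and 180 CPM in WT CD and 217, 221 and 182 CPM in WT HFD. The HoipA-KO libraries were at 66.5, 73.9 and 47.9 CPM on CD and 65.45, 57.0 and 41.7 CPM on HFD, so the enzyme that opposes the β receptors was lower in the same libraries as Adrb3 and Adrb1. The log2 fold change was -2.19 ± 0.32 on CD (4.56-fold, adjusted p = 0.00105 in edgeR's test) and -1.90 ± 0.30 on HFD (3.74-fold, adjusted p = 0.00999). Without WT CD replicate 1, which held the most Pde3b, the value on CD was -1.55 (adjusted p = 0.00314 in edgeR's test). Its paralog Pde3a, at 5.59 to 19.99 CPM over the 12 libraries, did not share the fall. On CD, the genotype difference of Pde3a was 0.63 ± 0.20 on the log2 scale, higher in HoipA-KO (adjusted p = 0.035 in edgeR's test) and in WT mice it rose with HFD by 1.03 ± 0.21 (adjusted p = 0.0127). Per kb, Pde3b was 93.9% to 98.7% of both genes in the 5 WT libraries of the tests and 82.1% to 88.6% in the HoipA-KO libraries.

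**Figure D3:**
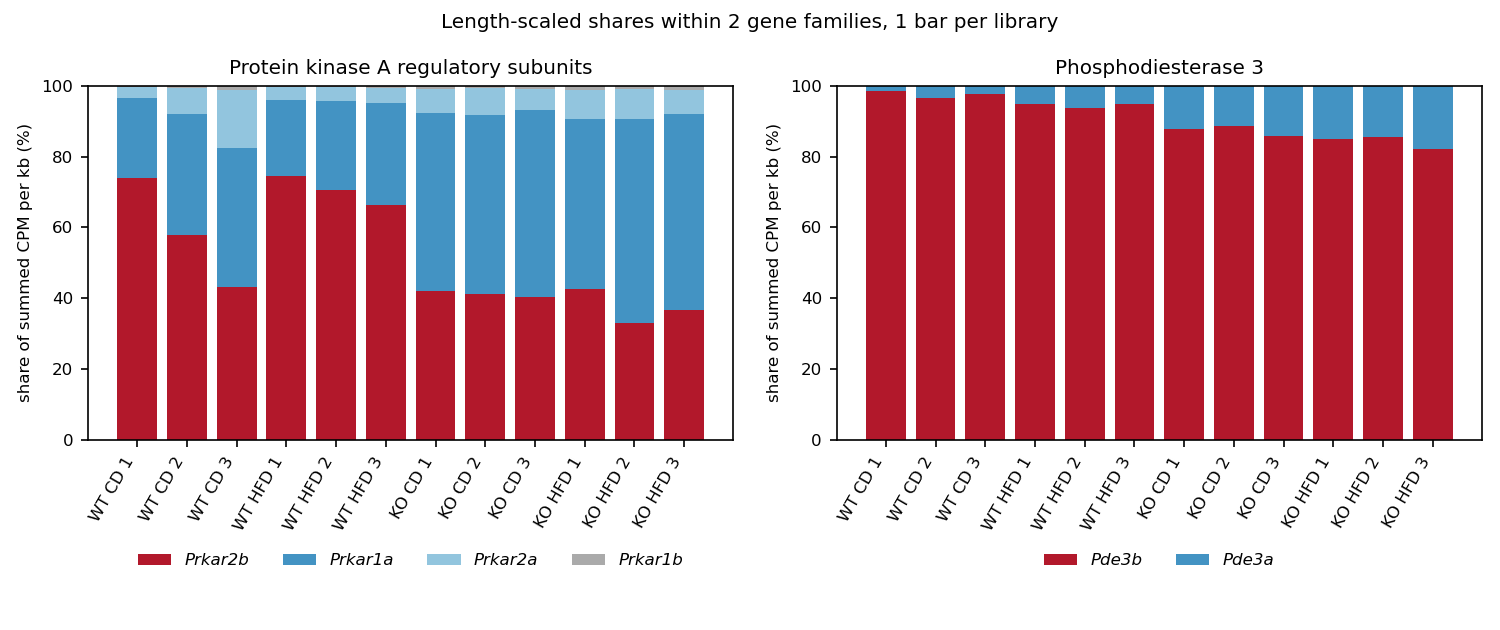
Shares of summed CPM per kb in percent, with 1 stacked bar per library, for the 4 genes of protein kinase A regulatory subunits on the left and for Pde3b and Pde3a on the right (KO stands for HoipA-KO). Prkar2b fills 57.9% or more of the bar in 5 WT libraries and 42.6% or less in the HoipA-KO libraries, and Pde3b fills 93.9% or more in the WT and 88.6% or less in the HoipA-KO libraries.

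Apart from Adra1a, no gene of the 8 passed the test for HFD in WT mice. Adrb3 came closest, at -1.72 ± 0.57 on the log2 scale (adjusted p = 0.0709 in edgeR's test, 0.103 over all 12 libraries). It was -0.70 without WT CD replicate 1 (adjusted p = 0.419 in edgeR's test) and -2.31 without replicate 2 (adjusted p = 0.0501), and it passed without HoipA-KO HFD replicate 2 (-1.72, adjusted p = 0.0354). By libraries alone, Adrb1, Adrb3 and Gnas were lower in every WT HFD library than in WT CD replicates 1 and 2, beside 18.7% of all genes lower and 23.9% higher in this way. With replicate 3, Adrb3 alone was lower and Adra1a alone higher in every WT HFD library, beside 10.3% and 17.1% of all genes. In HoipA-KO mice none of the 8 genes passed for HFD against CD in edgeR's test, where 0% of all genes did. The largest absolute log2 fold change was 0.60 ± 0.72 for Adra2a, no gene of the 8 had an unadjusted p under 0.05, and 0 passed with DESeq2. All 8 overlapped between the diets, where 2.5% of all genes were lower and 3.42% higher without overlap. For the interaction of genotype and diet, none of the 8 genes passed in edgeR's test, beside 3.91% of all genes (3.58% lower, 0.331% higher, and 2.78% in all over 12 libraries). Of the 8 genes, 1 (Adra1a) had an unadjusted p under 0.05 in edgeR's test, and 1 (Gnas, 0.34) passed with DESeq2. The share of all genes called with DESeq2 was not counted, so its counts have no background beside them.

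Because adipocyte genes as a whole were lower in HoipA-KO libraries, each gene was also expressed relative to them, as log2(CPM + 0.1) minus the mean of the 10 adipocyte genes in the same library. On this scale Adrb3 was still lower in HoipA-KO mice, by a log2 difference of -2.69 on CD and -2.02 on HFD, without overlap on either diet. Of the 10 adipocyte genes, only 1 (Cfd) had a more negative log2 fold change than Adrb3 on either diet. Adrb1, by contrast, kept step with the mean of the adipocyte genes, with differences of -0.0058 and 0.022 and overlapping libraries. Taken singly, 2 of the 10 on CD and 3 on HFD had a more negative log2 fold change than Adrb1. Pde3b differed by 0.45 and 0.46, also with overlapping libraries. Values of Adrb1 depended on the scale, since they were 0.80 and 0.89 with log2(CPM + 1) and -0.47 and -0.29 against the median of the adipocyte genes, an alternative added after the values were seen.

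Gnas and Prkaca were higher relative to the adipocyte genes in every HoipA-KO library than in every WT library of its diet, with CD differences of 2.20 for Gnas and 2.07 for Prkaca and HFD differences of 2.30 and 1.82. Adra1a was higher by 3.13 on CD and 1.715 on HFD, also without overlap, and Adra2a by 1.67 with overlap on CD and 3.04 without overlap on HFD. Prkar2b was higher by 1.59 on CD without overlap and by 0.49 on HFD with overlap. HFD in WT mice gave a lower relative level of Adrb3 (-0.98) and higher ones of Adra1a (2.09), Prkar2b (1.201) and Prkaca (0.61), each without overlap, the last overlapping once replicate 3 was included. These differences describe proportions within a library and were not tested. The mean log2 level of the adipocyte genes was itself 11.53 and 10.28 in WT CD replicates 1 and 2 and 7.751 to 8.628 in HoipA-KO CD. On HFD it was 9.936 to 10.59 in WT and 7.453 to 8.177 in HoipA-KO mice. A gene with the same CPM in every library would thus be higher in HoipA-KO mice on this scale, without overlap. How many of all genes were higher in this way was not counted.

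**Figure D4:**
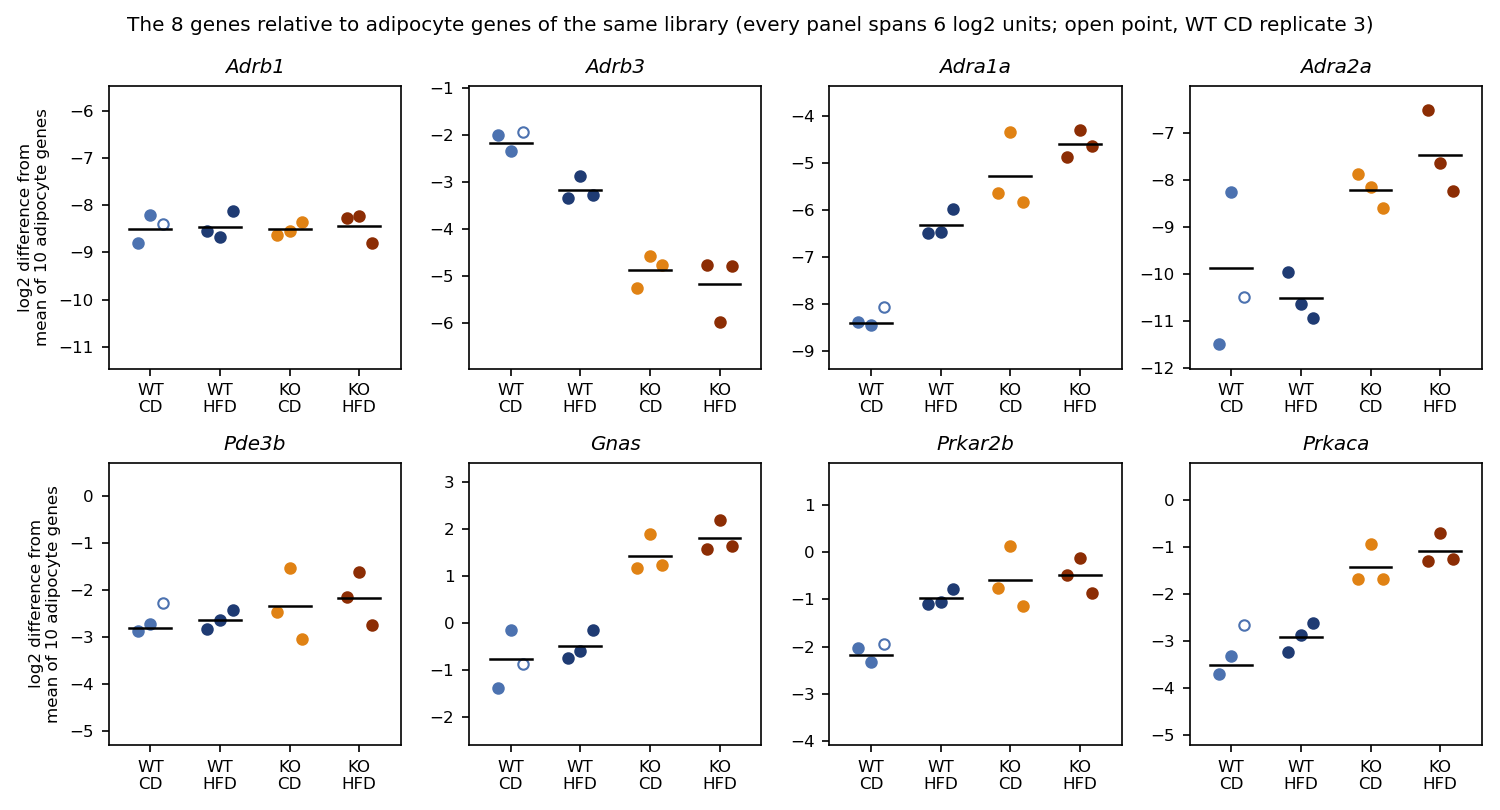
The 8 genes as log2 differences from the mean of 10 adipocyte genes of the same library, with 1 point per library, an open point for WT CD replicate 3 and a line at the mean of the others, where every panel spans 6 log2 units (KO stands for HoipA-KO). Against this mean, Adrb1 is level over the 4 groups, Adrb3 is lower in HoipA-KO, and Adra1a, Gnas and Prkaca are higher. The mean itself is lower in HoipA-KO, so a gene of even CPM also lies higher there.

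Compared per kb of exon, the order of the 8 genes also differed. In WT HFD the group means were 179 CPM per kb for Prkar2b, 81.2 for Gnas, 68.6 for Prkaca, 43.55 for Adrb3, 22.7 for Pde3b, 1.82 for Adra1a, 1.055 for Adrb1 and 0.181 for Adra2a. In HoipA-KO HFD they were 75.8 for Gnas, 47.75 for Prkar2b, 45.8 for Prkaca, 6.005 for Pde3b, 2.30 for Adrb3, 1.14 for Adra1a, 0.321 for Adra2a and 0.183 for Adrb1. Adrb3 was thus at 43.55 and 2.30 CPM per kb and Adra1a at 1.82 and 1.14. The mean of Adra2a in HoipA-KO HFD includes replicate 1, the library with the highest smooth muscle sum, at 3.05 CPM as compared to 0.777 and 0.836 CPM in the others. On CD Adra2a was at 0.210 CPM per kb and Adrb1 at 0.237 in HoipA-KO mice. In WT CD (n = 2) Adrb3 came first with 144.6 CPM per kb, followed by Prkar2b with 133.6 and Gnas with 101.0, and the 2 libraries differed 3.01-fold for Adrb3 and 2.92-fold for Prkar2b. The lengths count every annotated exon, which lowers the value of genes with many alternative exons such as Gnas.

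Of the other 86 genes of the pathway list, 84 could be tested. On CD, 16 were lower and 16 higher in HoipA-KO mice, 38.1% as compared to 37.7% of all genes, so the list as a whole stood at the background. On HFD, 15 were lower and 2 higher, 20.2% as compared to 11.8% of all genes, but only 4 were called over all 12 libraries, beside 2.78% of all genes. In WT mice HFD gave 3 lower and 11 higher genes, 16.7% as compared to 14.8%. HFD in HoipA-KO mice gave 0 in edgeR's test and 0 with DESeq2, for which the share of all genes was not counted.

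By role, counts on CD are read against the 18.9% of all genes called higher and 18.8% called lower, and with 2 to 15 genes a role they are a description. The receptor kinases and arrestins switch off activated receptors, and their role also holds Rgs2, a regulator of G protein signaling that is neither. This role had 4 of 7 genes higher and none lower on CD, among them Arrb2 (2.18) and Rgs2 (2.59). In WT mice on HFD 3 of the 7 were higher, where 9.35% of all genes were, with Rgs2 at 1.98 ± 0.44 on the log2 scale (adjusted p = 0.0199 in edgeR's test). Of the 8 other G protein α subunits, Gnai1 (-2.01) and Gna11 (-1.36) were lower and Gnai2 (1.14) higher on CD. Of the 10 adenylyl cyclases, which make cyclic AMP, Adcy6 (-1.26) and Adcy10 (-3.48) were lower and Adcy3 (2.61) and Adcy9 (1.29) higher. Of the 10 anchoring proteins that place protein kinase A in the cell, 4 were lower, among them Akap1 (-1.40), and 2 higher. Of the 15 other phosphodiesterases, 1 was lower and 2 were higher, and of 4 other protein kinase A subunits none passed. Over all 12 libraries Gnai3 (0.73, adjusted p = 0.0309 in edgeR's test), Adcy7 (2.37, adjusted p = 0.0301) and Prkacb were also called higher, while Akap10 was no longer called higher (0.42, adjusted p = 0.391). Pde1c was then called lower (-4.81, adjusted p = 0.0434 in edgeR's test, as compared to 0.21 over 11 libraries). This call rested on WT CD replicate 3, with 104 CPM of Pde1c. WT CD replicates 1 and 2 held 0.219 and 2.04 CPM, and HoipA-KO CD held 1.065 to 1.387 CPM.

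**Figure D5:**
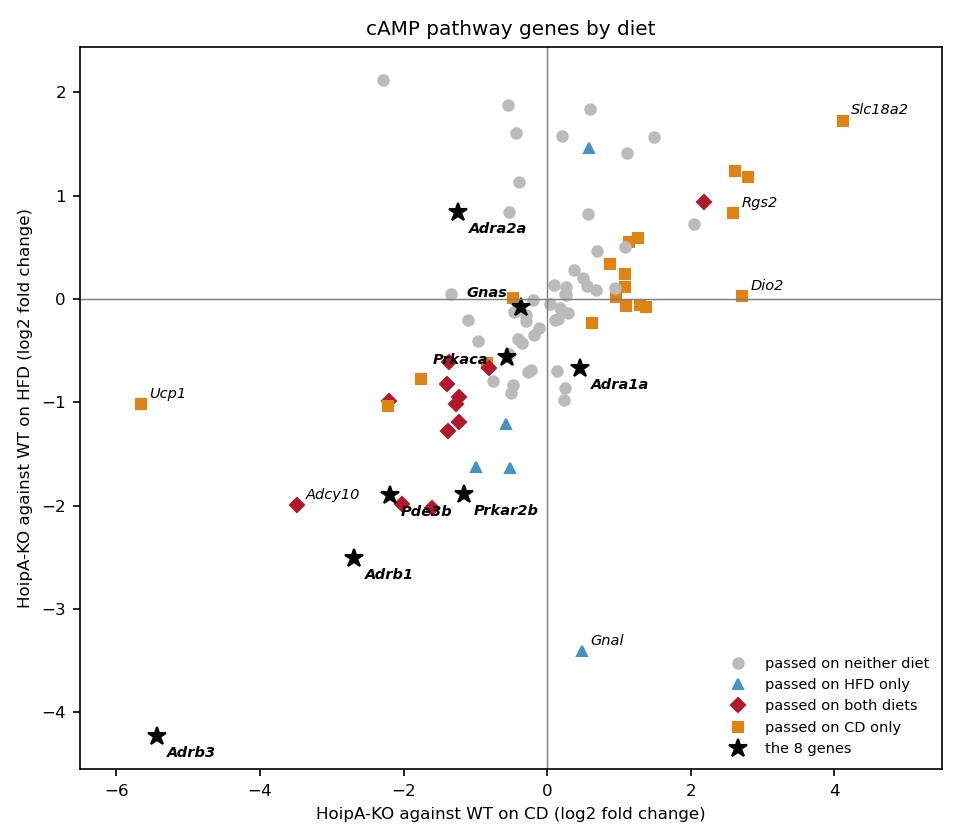
Log2 fold changes of HoipA-KO against WT mice on CD (horizontal) and on HFD (vertical) for the 84 tested pathway genes, with symbols by the diets on which the adjusted p was under 0.05, and stars for the 8 genes. Of the 8 genes Adrb3 lies farthest to the lower left, and Gnal, at -3.41 on HFD, passed on HFD alone.

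Some of the largest changes of the pathway list on CD depended on single libraries in sign, size or call. Ucp1, the uncoupling protein induced by β receptors, was at -5.65 ± 1.497 on the log2 scale (adjusted p = 0.0156 in edgeR's test), but it was at 13.2 CPM in WT CD replicate 2 and at 0.0975 and 0.0742 CPM in the other WT CD libraries, near the floor of 3 counts. Without replicate 2 its value was 0.40 (adjusted p = 0.834 in edgeR's test), and the call was also lost without HoipA-KO CD replicate 1 or 2 (-5.62 and -5.14, adjusted p = 0.0553 and 0.0526). WT CD replicate 2 is the library with the highest level of epididymal epithelium genes, whose part in the level of Ucp1 was not tested. Adcy10, the soluble adenylyl cyclase, was at 1.19 and 2.71 CPM in WT CD replicates 1 and 2, at 195 CPM in replicate 3 and at 0.12 to 0.196 CPM in HoipA-KO CD, for a log2 fold change of -3.48 that became -8.61 over all 12 libraries (adjusted p = 0.00178 and 0.00761 in edgeR's test). Pkib, a protein kinase A inhibitor, was called higher on CD (2.80 ± 0.76, adjusted p = 0.0176 in edgeR's test), yet over all 12 libraries its value was -0.31, with 54.2 CPM in WT CD replicate 3 as compared to 0.561 and 4.06 CPM in the others. Slc18a2, the vesicular monoamine transporter, rose by 4.12 ± 0.68 (17.4-fold, adjusted p = 0.0017 in edgeR's test), from 0.171 and 0.347 CPM to 3.50 to 5.01 CPM. The summed level of 5 mast cell genes was 20.3 and 30.4 CPM in the same WT CD libraries and 549 to 658 CPM in HoipA-KO CD, and their part in the rise was not tested. Dio2, the thyroid hormone activating deiodinase, rose by 2.71 ± 0.74 (adjusted p = 0.0177 in edgeR's test, 0.081 without WT CD replicate 1 and 0.0521 without HoipA-KO CD replicate 2). Maob, a monoamine oxidase, fell by 2.22 (adjusted p = 0.004 in edgeR's test).

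On HFD the pathway genes with the largest differences between genotypes were Gnal (-3.41 ± 0.54, adjusted p = 0.00999 in edgeR's test) and Slc22a3, a catecholamine transporter (-2.02 ± 0.45, adjusted p = 0.0253), followed by Adcy10 (-1.999, adjusted p = 0.0438). Adcy10 was at 0.356 to 0.673 CPM in WT HFD and at 0.0444 to 0.16 CPM in HoipA-KO HFD, the latter near or below the floor. Its mean passed the bound for naming of 1 CPM only through WT CD replicate 3. The 2 pathway genes called higher were Pde11a (1.46 ± 0.33, adjusted p = 0.0255 in edgeR's test) and Arrb2 (0.94 ± 0.25, adjusted p = 0.0436). All but Gnal missed the threshold over all 12 libraries, with adjusted p-values of 0.0559 to 0.505 in edgeR's test, and also when any 1 of 4 to 8 libraries was left out. In WT mice HFD gave the largest rises in Gnal (3.23 ± 0.63), Slc18a2 (2.35 ± 0.63) and Rgs2, and the largest falls in Adcy10 (-1.98 ± 0.55), Pde1a (-1.23 ± 0.26) and Akap1 (-0.52 ± 0.14). Each of these 6 calls was lost without at least 1 library. That of Gnal was lost without WT CD replicate 2 (3.17, adjusted p = 0.0647 in edgeR's test), that of Rgs2 without WT HFD replicate 2 or 3 (1.95 and 1.49), and that of Pde1a without WT CD replicate 1 (-0.85) or WT HFD replicate 2 (-1.18). Without WT CD replicate 2, Adcy10 was at -1.27 (adjusted p = 0.279 in edgeR's test) and Akap1 at -0.31 (adjusted p = 0.251), and Slc18a2 ranged from 1.91 to 2.95 over the 8 libraries without which its call was lost. Over all 12 libraries Adcy10 was at -7.07 and Akap1 at -1.73 (adjusted p = 0.0271 and 0.0508 in edgeR's test). WT CD replicate 3 held 195 CPM of Adcy10 and 369 CPM of Akap1. WT CD replicates 1 and 2 held 1.19 and 2.71 CPM of Adcy10, and 65.65 and 85.98 CPM of Akap1.

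Over the 12 libraries, which share tissue makeup and normalization, the level of Adrb3 as log2(CPM + 1) was most like that of Mogat1 (Pearson's r = 0.985), an acyltransferase of glyceride synthesis, Cdo1 (0.984), cysteine dioxygenase, and Slc1a3 (0.982), a glutamate transporter, among genes with a mean of at least 10 CPM. The genes most like Adrb1 were Adhfe1 (0.992), Car5b (0.990) and Mccc2 (0.987), all of which encode mitochondrial enzymes. Those most like Pde3b were Ralgapa2 (0.991), Txlng (0.990) and Sik2 (0.987), a kinase of the family that protein kinase A phosphorylates. Adra1a was most like Map4k4 (0.977) and Adra2a most like Ptgs1 (0.976), while Crisp1, an epididymal gene, ranked 3 for Adra2a (0.893). Among the 8 genes, Adrb1 and Adrb3 had the highest correlation (0.965), followed by Adrb1 with Pde3b (0.951), Adrb3 with Pde3b (0.946) and Prkar2b with Prkaca (0.908). These correlations describe groups that differ in level and carry no p.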

How the data were processed

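Polyadenylated RNA of GWAT from 12 pools of 3 mice was sequenced after stranded library preparation with spike-in RNA. After trimming with Trim Galore 0.6.7 and alignment with STAR 2.7.10a, the authors deposited estimated counts per gene from Salmon 1.5.2, without normalization. The submitters' processing notes name GRCm38, the methods name a human assembly, and the identifiers are those of mouse genes, so positions and exon lengths are from GENCODE vM21 on GRCm38. Tables of the authors' own comparisons, with fold changes, p-values and CPM of the 11 libraries, were not used. After rounding, a filter by filterByExpr and TMM normalization, 1 model of 4 groups was fitted to the 11 libraries with edgeR 4.0.16 (R 4.3.3), and contrasts were tested by quasi-likelihood with Benjamini-Hochberg adjustment over all genes at 0.05. DESeq2 1.42.0 served as an alternative. The fit was also run on simulated data with a smaller spread than that between these pools, which checks the code and not the results here. The spread between pools sets the p-values. The prior count behind log2 fold changes was 0.125, and the biological coefficient of variation was 0.394 over 11 and 0.514 over 12 libraries. The 8 genes and all lists were chosen with earlier results of these data known. Named were all 8 genes, the other α receptors, close relatives of the 8, per comparison the 3 pathway genes with the largest rise and fall past the threshold and a mean of at least 1 CPM, and the 3 genes of highest correlation with each of the 8, of which the report gives a selection. Other pathway genes given as examples of a role were named after their values were seen. One gene of the pathway list is not reported here. Shares, relative levels and correlations have no test. Alternatives were all 12 libraries, other WT CD libraries, other size factors or filters, protein-coding genes only, only the groups compared, a replicate block, another pseudocount or adipocyte reference, and leaving out each library in turn.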

Additional observations from a re-analysis of the deposited data

Results flagged for a closer look

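Gnal, the olfactory relative of Gnas that also stimulates adenylyl cyclase, was the 1 gene of the pathway list called for the interaction of genotype and diet. This is 1.19% of the 84 genes tested, below the 3.91% of all genes called, and the count changed with the processing, as given below. The interaction of genotype and diet was -3.90 ± 0.79 (SE) on the log2 scale, with an adjusted p of 0.032 in edgeR's quasi-likelihood test over all genes. It was at 2.24, 2.06 and 2.25 CPM in WT CD replicates 1, 2 and 3 and at 7.27, 30.6 and 22.3 CPM in WT HFD, as compared to 2.61, 4.34 and 1.76 CPM in HoipA-KO CD and 2.27, 1.35 and 1.97 CPM in HoipA-KO HFD. The WT HFD libraries were thus the only ones above 4.34 CPM. The adjusted p rose to 0.0513 to 0.106 without any 1 of 9 of the 11 libraries and to 0.075 with a replicate block. The summed level of the 9 macrophage genes was 1810 to 5350 CPM in WT HFD and 6590 to 12100 CPM in the HoipA-KO libraries, and their part in the level of Gnal was not tested.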

How the results depend on the processing

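Adrb1, Adrb3 and Pde3b were lower in HoipA-KO mice on both diets, past the threshold, under every alternative and without any 1 of the 11 libraries. The calls of Prkar2b and Adra1a, and the missed calls of Gnas on CD, of Prkaca on both diets and of Adrb3 for HFD in WT mice, depended on single libraries, as given in the report. The other alternatives, 11 in number, also changed them. Among these, Gnas on CD passed in 3, Prkaca in 5 on CD and 4 on HFD, and Adrb3 for HFD in WT mice in 1. The call of Prkar2b on CD was lost in 4, and that of Adra1a for HFD in WT mice in 2. The main model does not pair libraries by replicate number. Whether the numbers pair them was not settled, because the deviations of WT CD replicates 1 and 2 mirror each other. Over 15 pairs of the same number the correlation of deviations from the group means was -0.371 to 0.499, with 6 over 0.1, and 5 of 11 libraries correlated best with their own number. With the replicate block, Prkar2b on CD (-0.95, adjusted p = 0.0753 in edgeR's test), Adra1a for HFD in WT mice (1.45, adjusted p = 0.073) and Ucp1 on CD (-4.86, adjusted p = 0.0773) were lost. For HFD in WT mice it left 0 of the 8 genes and 8 pathway genes called, as compared to 1 and 14. The cause of these and the following changes was not tested, except that fewer libraries leave fewer degrees of freedom.

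For pathway genes called between genotypes on HFD (17), all 12 libraries gave 4, WT CD replicates 1 and 3 gave 6, the DESeq2 Wald test gave 28 and leaving out 1 library gave 4 to 29. For HFD in WT mice, WT CD replicates 2 and 3 gave 3 of the 8 genes and 36 pathway genes, DESeq2 gave 3 and 25, a fit of only the groups compared gave 0 and 0, and leaving out 1 library gave 0 to 2 and 4 to 30. For the interaction (0 of the 8 genes, 1 pathway gene), WT CD replicates 2 and 3 gave 2 and 19, DESeq2 gave 1 and 11, and leaving out 1 library gave 0 to 2 and 0 to 14. The interaction count of pathway genes was 2 with all 12 libraries, with WT CD replicates 1 and 3, with at least 10 counts in every library and with protein-coding genes only, and 3 with library size alone. The share of all genes called was counted for the fits of 11 and 12 libraries only. The counts under other settings, the replicate block included, thus have no background beside them and are no result about the lists.

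These values changed sign. With all 12 libraries, HFD in WT mice gave 0.068 for Prkaca, the interaction gave -0.079 for Adrb1 and -0.0038 for Gnas, and Pkib on CD was -0.31. With WT CD replicates 2 and 3, the genotype difference on CD was 0.13 for Gnas and -0.84 for Pkib. HFD in WT mice then gave 0.14 for Adrb1, 0.20 for Pde3b, 0.22 for Gnas and 0.41 for Prkaca, and the interaction gave -0.51 for Adrb1, -0.40 for Pde3b and -0.23 for Gnas. With WT CD replicates 1 and 3, the difference on CD was 0.52 for Adra2a, 0.088 for Gnas, 0.56 for Ucp1 and -0.78 for Pkib, HFD in WT mice gave 0.29 for Adra2a and 0.18 for Gnas, and the interaction gave -0.043 for Adrb1, -0.18 for Gnas and 0.058 for Prkaca.

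The interaction of Prkaca was 0.037 with DESeq2 size factors and with the DESeq2 Wald test, 0.039 with no filter, 0.040 with at least 10 counts, 0.078 with protein-coding genes and 0.024 with library size alone. Library size alone gave 0.0087 for Gnas between genotypes on HFD, 0.043 for Prkaca with HFD in WT mice, and 0.084 for Gnas and 0.067 for Prkaca with HFD in HoipA-KO mice, where at least 10 counts gave 0.0048 for Gnas. Relative to the adipocyte genes, Adrb1 was at 0.80 on CD with log2(CPM + 1) and at -0.29 on HFD against their median.

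Leaving out 1 library changed a sign over these ranges. Between genotypes on CD, Adra1a ranged from -0.058 to 1.27, Adra2a from -1.93 to 0.17 and Ucp1 from -6.67 to 0.40, and on HFD Adra2a ranged from -0.070 to 1.41. With HFD in WT mice, Pde3b ranged from -0.95 to 0.17, Prkaca from -0.39 to 0.48 and Prkar2b from -0.14 to 1.42. With HFD in HoipA-KO mice, Gnas ranged from -0.053 to 0.051, Prkaca from -0.064 to 0.011 and Adra2a from -0.31 to 0.94. For the interaction, Adrb1 ranged from -0.19 to 0.56, Pde3b from -0.37 to 0.74 and Prkaca from -0.51 to 0.35.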
